A study of Mus musculus with 6 samples.

Results

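The genes described here encode collagens, other proteins of the extracellular matrix and the contractile proteins of smooth muscle. There were 41 listed genes, sorted into fibrillar collagens (5), basement membrane components (9), other matrix proteins and collagen-modifying enzymes (22), and smooth muscle genes (5). Of these, 40 were measured among the 12393 genes of the whole dataset, through 69 of 20380 probe sets that name exactly 1 gene. Fbn1 is not analysed here. The list was chosen with the genotype differences of these pools known, so the differences between genotypes are a description of the listed genes and carry no test of them.

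Gene expression was measured on Affymetrix MOE430A arrays in C57BL/6 mouse embryos at 9.5 days post coitum (dpc). The tissue was the presomitic mesoderm level, the unsegmented tail tissue behind the newest somite, cut free after allantois remnants had been removed. Tissue cut at this level can hold cells of all germ layers, including vessels, gut and neural tube, together with the mesoderm. Wild-type (Dll3+/+) embryos were compared with embryos homozygous for a targeted allele of Dll3, named Dll3tm1Rbe or Dll3neo in the labels, to find genes that the loss of this divergent Notch ligand disrupts. There were 3 pools of embryos per genotype, 1 array per pool. The pools are biological replicates by the design text, while the sources used here do not give the number of embryos in each. The p-values measure the spread between these pools.

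The extracellular matrix of an embryo has distinct parts. Fibrillar collagens, made by mesenchymal cells, assemble into tensile fibres. Basement membranes are thin sheets of laminin, collagen IV, nidogen and perlecan under epithelia and around vessels, and in the presomitic mesoderm a matrix of this kind surrounds the tissue as it becomes epithelial somites. Smooth muscle genes encode an actin, its regulators and a myosin light chain, are driven by serum response factor through CArG boxes, and are also transcribed in the early embryonic heart.

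Each value is a ratio, for most probe sets that of the signal to its median over the 6 arrays, averaged on the log2 scale over the probe sets of a gene. The divisor is unknown for the probe sets whose median ratio is below 1, among them 1 of the 69, for Lox. A ratio compares pools for 1 gene. It holds no absolute level, so levels of different genes were not compared, and whether markers of the labelled tissue are present or absent could not be checked. The median ratio over all probe sets lay between 0.985 and 1.01 on every array. Dll3 was the 1 gene of 12393 (0.00807%) that passed the test over all genes (limma adjusted p = 0.00132). Its ratio was 1.46, 1.63 and 2.01 in the wild-type pools and fell to 0.480, 0.476 and 0.537 in the mutant pools. In mutant pool 1 heart muscle transcripts were far above their level in the other 5 pools. Values without that pool are given beside some of the results that it moved, not beside all of them.

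RefSeq promoter windows (250 bases before to 50 after each transcription start, assembly GRCm38.p6) were found for 28 of the 41 genes. The bases upstream of the start are printed for 5 genes whose values are described below, 3 smooth muscle genes that were highest in mutant pool 1 and 2 matrix genes without overlap between genotypes. Each is written 5′ to 3′ on the gene's own strand and ends with the base before the start, and the capitals mark the motifs that were searched for.
Acta2, chr19:34255374-34255503, minus strand: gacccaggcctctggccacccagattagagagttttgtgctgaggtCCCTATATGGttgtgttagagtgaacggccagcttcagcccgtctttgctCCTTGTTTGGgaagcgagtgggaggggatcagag
Myl9, chr2:156775294-156775463, plus strand: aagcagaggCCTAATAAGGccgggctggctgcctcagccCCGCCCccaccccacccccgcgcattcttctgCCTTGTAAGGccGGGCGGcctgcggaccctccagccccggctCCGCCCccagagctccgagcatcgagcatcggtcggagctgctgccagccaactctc
Cnn1, chr9:22099123-22099252, plus strand: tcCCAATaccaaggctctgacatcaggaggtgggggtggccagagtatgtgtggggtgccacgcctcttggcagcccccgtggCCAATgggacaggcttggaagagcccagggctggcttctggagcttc
Col3a1, chr1:45311408-45311537, plus strand: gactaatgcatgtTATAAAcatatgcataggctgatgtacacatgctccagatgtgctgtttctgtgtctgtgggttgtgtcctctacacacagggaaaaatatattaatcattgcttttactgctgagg
Postn, chr3:54360977-54361106, plus strand: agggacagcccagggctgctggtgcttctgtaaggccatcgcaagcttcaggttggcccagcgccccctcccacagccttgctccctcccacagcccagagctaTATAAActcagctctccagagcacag

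The motifs were the CArG box, also with 1 other letter allowed, the TATA-box letters TATAAA, the CCAAT box and, for GC boxes, the letters GGGCGG, each searched on both strands of the full window. A CArG box was found in 1.63% of all 32851 windows, and of the 28 genes with a window only Myl9 had one, at positions -161 to -152 from its start. With 1 other letter allowed the share of all windows was 9.98%. Acta2 then matched at -84 to -75 and at -34 to -25, Myl9 matched a second time at -99 to -90, and Col1a2, Col6a3, Fbln2 and Lamb1 each matched as well. TATAAA was found in 13.6% of all windows and in those of Cald1, Col3a1, P4ha1, Postn and Tnc. In the Postn window printed above, 1 of 2 annotated starts of that gene, it lay at -26 to -21, whereas in Col3a1 it lay at -117 to -112. CCAAT, in 37.4% of all windows, was found in 10 of the 35 windows of the 28 genes. These belonged to 10 genes, with 2 places each in Cnn1 and Col1a2. GGGCGG, in 35.7% of all windows, was found in 23 of those 35 windows, for 21 of the 28 genes. Myl9 had 3 matches, and Hspg2 and P4ha2 had more. Col4a1 and Col4a2 lie head to head on chromosome 8, on the minus and plus strand, with starts 21 bases apart.

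Most of the listed genes had higher mean values in the mutant pools. By sign, 29 of 40 were higher and 11 lower, with a median log2 difference (mutant minus wild type) of 0.13, whereas 51.1% of all genes were higher and their median difference was 0.0028. In 9 genes every mutant pool lay above every wild-type pool, which was so for 3.11% of all genes. These were Col1a1, Col3a1, Col4a1, Col4a2, Postn, Sparc, Dcn, Loxl1 and Tagln. None of the 40 lay wholly below the wild type, against 1.84% of all genes. No listed gene passed limma at an adjusted p of 0.05, and 8 had an unadjusted p below it, against 1.28% of all genes. No listed gene passed under any other fit that was run, and those fits gave 4 to 10 listed genes at that unadjusted level. Since the genotype contrast guided the choice of genes, nothing is read from these counts. Without mutant pool 1, 27 of 40 were higher and the median was 0.08. In that comparison of 5 pools, 10 listed genes lay wholly above the wild type, against 8.34% of all genes.

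**Figure D1:**
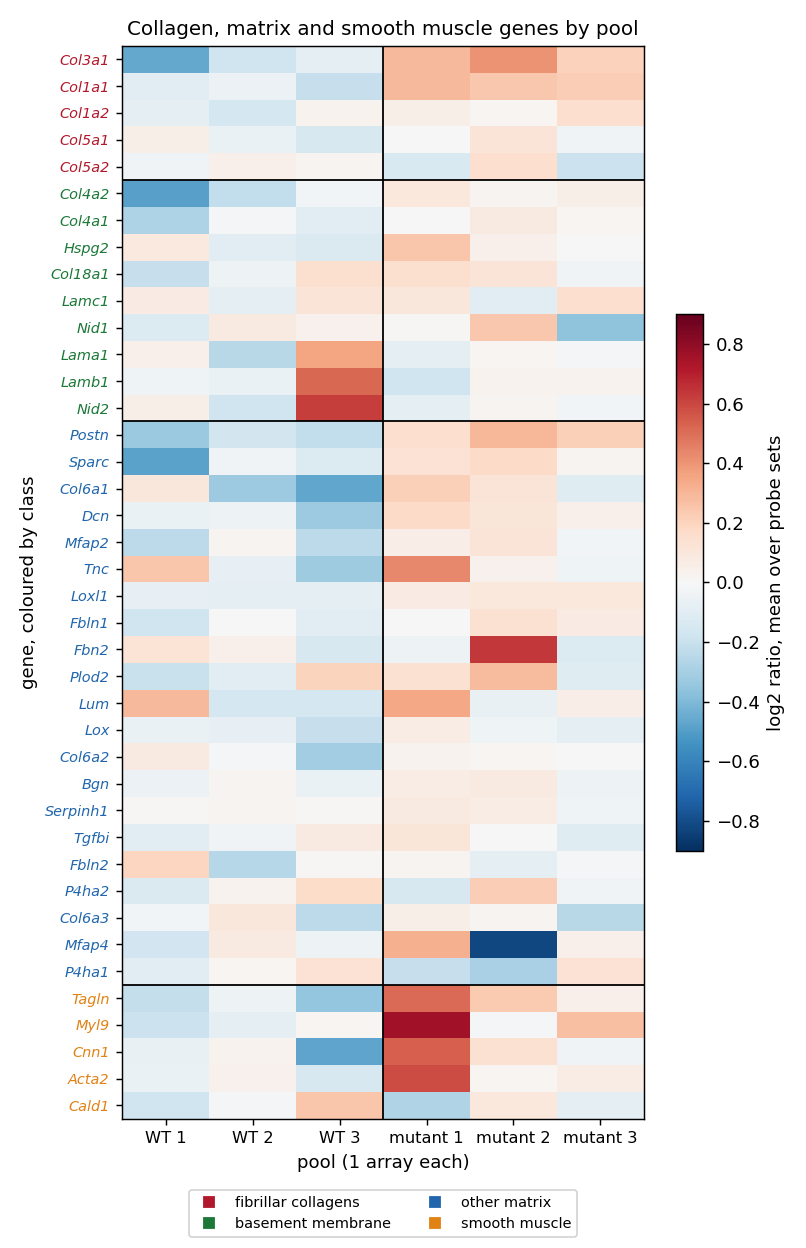
Log2 ratio of each measured gene (rows, grouped by class) in each of the 6 pools (columns), averaged over its probe sets. Col3a1, Col1a1 and Postn are above 0 in all 3 mutant pools and below 0 in all 3 wild-type pools, whereas Acta2, Myl9 and Cnn1 are highest in mutant pool 1.

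The highest values were not spread evenly over the pools. Mutant pool 1 held the highest value of 15 genes and mutant pool 2 that of 14, while mutant pool 3 was the highest for only 3. Wild-type pool 3 held the lowest value of 15 genes and wild-type pool 1 that of 10. The classes differed in which pools these were, as described next.

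Among the fibrillar collagens, Col3a1 and Col1a1 were higher in every mutant pool than in any wild-type pool, and Col1a2, Col5a1 and Col5a2 overlapped between genotypes. The class median was 0.15, with 4 of 5 genes higher, and 0.16 without mutant pool 1. Its median log2 ratio was -0.08, -0.06 and -0.09 over the wild-type pools, in order, against 0.06, 0.15 and 0.15 over the mutant pools.

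Col3a1 encodes the chain of collagen III, a fibre of distensible tissues and vessel walls. Its ratio was 0.727, 0.883 and 0.942 in the wild-type pools against 1.22, 1.32 and 1.16 in the mutant pools. In this average every mutant pool lay above every wild-type pool. Each standard error (SE) here and below is from limma, which draws a gene's variance toward that of all genes. The Col3a1 difference was 0.54 on the log2 scale (SE 0.12, n = 3 pools each), a 1.46-fold higher mean. This difference stayed between 0.43 and 0.62 when any 1 pool was left out. The Col3a1 probe sets gave 0.72 (1427883_a_at, highest in mutant pool 2) and 0.37 (1427884_at, highest in mutant pool 1), each without overlap. Without mutant pool 1 they gave 0.86 and 0.24. Col1a1 encodes the alpha 1 chain of collagen I, the main collagen of bone and skin. It measured 0.934, 0.962 and 0.866 in the wild type against 1.23, 1.19 and 1.17 in the mutant. The mutant pools lay close together and above the wild type, with a difference of 0.37 (SE 0.10) that ranged from 0.33 to 0.41 with 1 pool left out. Only 1 of its probe sets was without overlap, 1423669_at at 0.49. In the other, 1455494_at, mutant pool 3 was as low as 0.975 and the difference was 0.26. Col1a2, whose product pairs with that of Col1a1 in the same molecule, read 0.944, 0.895 and 1.02 in the wild type against 1.04, 1.01 and 1.11 in the mutant. Wild-type pool 3 lay within the mutant range, and the difference was 0.15 (SE 0.10). The Col1a2 probe set 1450857_a_at was without overlap, at 0.19. In the other, 1423110_at, wild-type pool 3 read 1.13, the groups overlapped and the difference was 0.10.

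Collagen V chains co-assemble with collagen I and limit fibre width. For Col5a1 the ratios were 1.04, 0.959 and 0.906 in wild-type pools against 0.996, 1.09 and 0.980 in mutant pools, a difference of 0.08 (SE 0.10) with overlapping groups. For Col5a2 they were 0.980, 1.03 and 1.02 against 0.911, 1.11 and 0.874. Here mutant pool 2 was the highest of the 6 and the other mutant pools were the lowest, so the mean difference of -0.07 (SE 0.12) was smaller than the spread between mutant pools.

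In the basement membrane class, the 4 genes of collagen IV, collagen XVIII and perlecan all had positive differences, with a median of 0.15. Of the 5 laminin and nidogen genes 1 was higher, with a median of -0.08, but without wild-type pool 3 the count was 4 of 5 and the median 0.03. The difference between these sets was not tested. Over the whole class the median was 0.01, with 5 of 9 genes higher, and -0.01 without mutant pool 1.

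Col4a2 and Col4a1 encode the chains of the network-forming collagen IV. Col4a2 measured 0.712, 0.856 and 0.982 in the wild type against 1.07, 1.02 and 1.04 in the mutant. Col4a1 measured 0.826, 0.986 and 0.938 against 0.9998, 1.06 and 1.01. In both genes wild-type pool 1 was the lowest and the mutant pools lay above all wild-type pools, Col4a1 by a narrow margin. The difference was 0.31 (SE 0.13) for Col4a2 and 0.16 (SE 0.11) for Col4a1. Without wild-type pool 1 they were 0.18 and 0.09. Each of the Col4a1 probe sets taken alone, 1426348_at and 1452035_at, overlapped between genotypes. Hspg2, the gene of perlecan, and Col18a1, whose product also carries heparan sulfate, had differences of 0.14 and 0.11 with overlapping groups.

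Nid2 and Lamb1 had the most negative differences of the class. Nidogen 2, which links laminin to collagen IV, read 1.04, 0.884 and 1.54 in wild-type pools against 0.942, 1.02 and 0.985 in mutant pools. Lamb1, the gene of the laminin beta 1 chain, read 0.973, 0.958 and 1.43 against 0.883, 1.02 and 1.02. In the averages of both genes wild-type pool 3 stood far above the other 5 pools, and those 5 overlapped. The differences were -0.20 (SE 0.18) for Nid2 and -0.18 (SE 0.16) for Lamb1. Without wild-type pool 3 they were 0.03 and 0.01. The Lamb1 probe sets 1424113_at and 1424114_s_at read 1.65 and 1.66 in wild-type pool 3. In its probe set 1451241_at that pool read 1.06, below wild-type pool 1 at 1.11, and the difference was -0.19.

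Lama1, encoding the alpha 1 chain that joins beta 1 and gamma 1 in laminin 111, was likewise highest in wild-type pool 3, at 1.28. The other 5 pools read from 0.841 to 1.03. The median of the 5 laminin and nidogen genes was 0.36 on the log2 scale in wild-type pool 3 alone. Without that pool 8 of 9 genes of the class were higher. Lamc1 and Nid1 had the smallest differences of the class. Lamc1, the gamma 1 chain gene, read 1.05, 0.947 and 1.08 in wild-type pools against 1.07, 0.931 and 1.11 in mutant pools, nearly the same set of values (0.01, SE 0.11). Nid1, the nidogen 1 gene, read 0.919, 1.06 and 1.03 against 1.01, 1.18 and 0.777, where the mutant pools held both the highest and the lowest value (-0.04, SE 0.15).

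**Figure D2:**
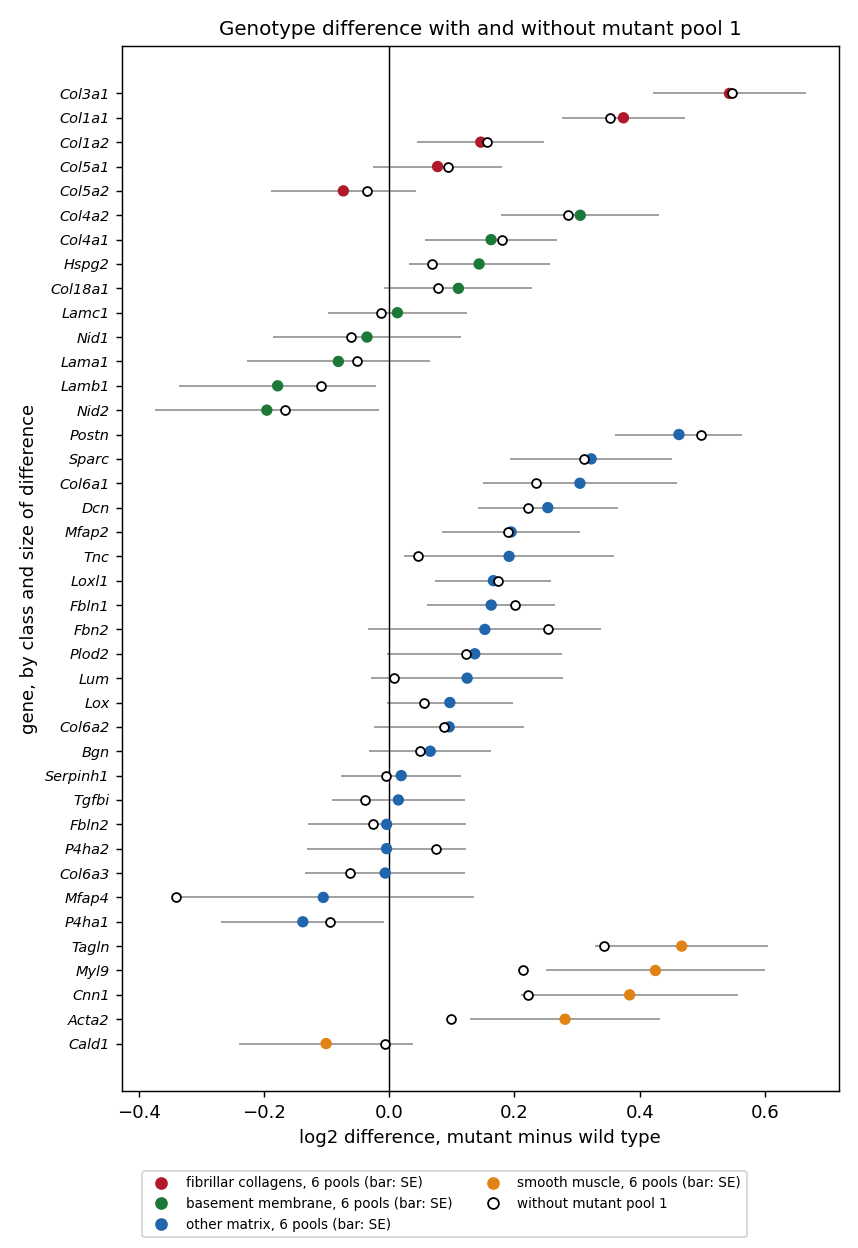
Log2 difference between genotypes (mutant minus wild type, x axis) for each measured gene (y axis, by class). Filled points are for all 6 pools, with bars for the limma standard error, and open points are without mutant pool 1. The open points of Acta2, Myl9 and Cnn1 lie left of the filled ones, while those of Col3a1, Col1a1 and Postn lie near them.

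Of the other matrix genes, 16 of 21 were higher in the mutant, with a median of 0.12 (0.07 and 15 of 21 without mutant pool 1). The genes of the matricellular proteins periostin and SPARC and of the small proteoglycan decorin lay above the wild type in every mutant pool. The difference of the fibulin 2 gene was near 0. The chaperone and hydroxylase genes of collagen had a median near 0, but ranged from -0.14 (P4ha1) to 0.14 (Plod2). Postn encodes periostin, which binds collagen and promotes its cross-linking. Its ratio was 0.792, 0.890 and 0.857 in the wild type against 1.11, 1.23 and 1.16 in the mutant. The gap between the groups was wide relative to the spread within each. The difference was 0.46 (SE 0.10) and stayed from 0.42 to 0.50 with 1 pool left out.

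Sparc, whose product binds collagen and is made in abundance by parietal endoderm, measured 0.718, 0.980 and 0.916 in the wild type against 1.10, 1.13 and 1.02 in the mutant. In the gene average the groups did not overlap, and wild-type pool 1 was well below the other pools. Only 1 of its probe sets was without overlap, 1448392_at at 0.39. In the other, 1416589_at, mutant pool 3 (0.995) lay below wild-type pool 2 (1.005), and the difference was 0.26. The gene average differed by 0.32 (SE 0.13), and by 0.19 without wild-type pool 1. Dcn, the gene of decorin, which coats collagen fibrils, read 0.960, 0.967 and 0.797 against 1.13, 1.08 and 1.03, with wild-type pool 3 the lowest. Its difference was 0.25 (SE 0.11), and 0.16 without that pool. Loxl1 encodes a lysyl oxidase that cross-links elastin, and it read 0.949, 0.947 and 0.944 in wild-type pools against 1.05, 1.07 and 1.07 in mutant pools. Its groups were the tightest of the 9 genes without overlap, at a difference of only 0.17 (SE 0.09). The SD of Loxl1 within genotypes was 0.0098 on the log2 scale, so this limma SE is wider than the spread of its pools.

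Collagen VI forms beaded filaments around cells. Col6a1 measured 1.07, 0.799 and 0.722 in wild-type pools against 1.16, 1.08 and 0.928 in mutant pools, a difference of 0.30 (SE 0.16) with wild-type pool 1 inside the mutant range. The other chains differed little between genotypes, at 0.10 for Col6a2 and -0.01 for Col6a3. The median of the 3 chains was lowest in wild-type pool 3, at -0.31 on the log2 scale, and without that pool the median difference was -0.02 in place of 0.10. The smallest differences of the class belonged to Fbln2 and P4ha2, at -0.0042 and -0.0043. Fbln2, the gene of fibulin 2, read 1.14, 0.835 and 1.01 in wild-type pools against 1.01, 0.946 and 0.993 in mutant pools, and P4ha2, a subunit gene of collagen prolyl 4-hydroxylase, read 0.912, 1.02 and 1.12 against 0.907, 1.17 and 0.979. Both sets of pools overlapped fully. Among the chaperone and hydroxylase genes Serpinh1, P4ha1, P4ha2 and Plod2, 2 were higher and 2 lower, with a median of 0.01.

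The remaining 12 matrix genes ranged from -0.14 (P4ha1) to 0.19 (Mfap2) and all overlapped between genotypes. The values of 3 of them, chosen after they were seen, rested on single pools. The fibrillin gene Fbn2 reached 1.56 in mutant pool 2 against 0.904 to 1.09 in the other 5 pools, and its difference of 0.15 was -0.09 without that pool. Mfap4, a microfibril gene, was lowest in that pool, at 0.568, with 0.889 to 1.25 elsewhere, and its difference of -0.11 was 0.23 without that pool. Tnc, encoding tenascin C, was highest in mutant pool 1 at 1.35, and its difference of 0.19 was 0.05 without that pool and 0.06 without wild-type pool 3, its lowest at 0.802.

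Among the smooth muscle genes 4 of 5 were higher in the mutant, with the highest class median, 0.38, and in those 4 mutant pool 1 was the highest of the 6 pools. The class median ratio on the log2 scale was -0.18, -0.02 and -0.15 in the wild-type pools against 0.54, 0.10 and 0.04 in the mutant pools. Without mutant pool 1 the class median was 0.21.

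Tagln encodes transgelin, an actin-binding protein of smooth muscle. It read 0.861, 0.970 and 0.784 in wild-type pools against 1.42, 1.18 and 1.03 in mutant pools, and it was the only smooth muscle gene without overlap. Its difference was 0.47 (SE 0.14), and 0.34 without mutant pool 1. Myl9, the gene of the regulatory light chain of smooth muscle myosin, read 0.874, 0.942 and 1.01 against 1.69, 0.989 and 1.20. Mutant pool 1 stood apart, and mutant pool 2 lay below wild-type pool 3. The difference of 0.43 (SE 0.18) was 0.21 without mutant pool 1. Cnn1 encodes calponin 1, which restrains the actomyosin motor. It read 0.955, 1.02 and 0.721 in wild-type pools against 1.46, 1.10 and 0.977 in mutant pools. The groups overlapped, and both extremes, wild-type pool 3 and mutant pool 1, widened the difference of 0.38 (SE 0.17), which was 0.22 without mutant pool 1. Cald1, the caldesmon gene, also expressed outside muscle, had a negative difference with overlapping groups. Its ratio was 0.884, 0.988 and 1.19 against 0.828, 1.07 and 0.947, a difference of -0.10 (SE 0.14) that was -0.01 without mutant pool 1.

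Acta2 encodes smooth muscle alpha actin. Its gene average was 0.957, 1.03 and 0.903 in wild-type pools against 1.502, 1.01 and 1.05 in mutant pools, a difference of 0.28 (SE 0.15) that was 0.10 without mutant pool 1. The average hides probe sets that went opposite ways. Probe set 1416454_s_at read 0.773, 0.924 and 0.836 in the wild type against 2.20, 1.08 and 1.14 in the mutant, with no overlap and a difference of 0.73, or 0.40 without mutant pool 1. Probe set 1456658_at read 1.19, 1.14 and 0.976 against 1.02, 0.950 and 0.957, a difference of -0.17, or -0.20 without that pool. Affymetrix gives the suffix _s_at to probe sets whose probes can match more than 1 transcript. The cardiac actin gene Actc1 read 0.628, 1.01 and 0.862 in wild-type pools against 9.93, 0.994 and 1.04 in mutant pools, and the skeletal actin gene Acta1 reached 2.93 in mutant pool 1. Whether these transcripts reach the Acta2 probe set was not tested.

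**Figure D3:**
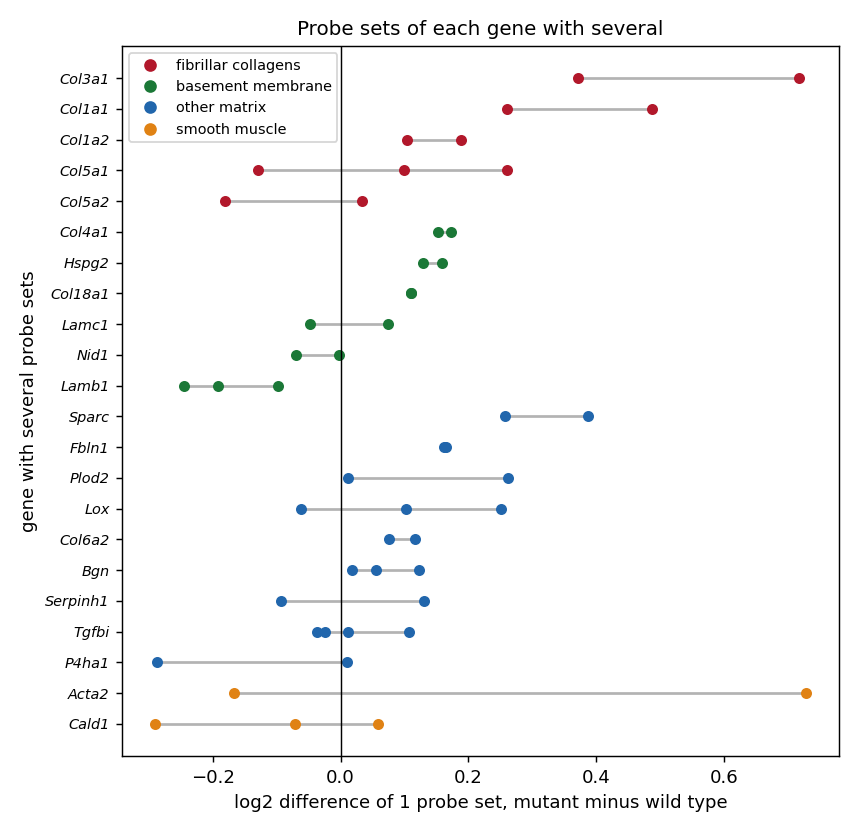
Log2 difference between genotypes (mutant minus wild type, x axis) of the separate probe sets of each gene that has several (y axis), with a line joining the probe sets of 1 gene. The Acta2 probe sets lie farthest apart, 0.89, on opposite sides of 0, while both probe sets of Col3a1 and of Col1a1 lie to the right of 0.

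Of the 22 genes with several probe sets, 9 had probe sets of opposite sign, namely Acta2, Cald1, Col5a1, Col5a2, Lamc1, Lox, P4ha1, Serpinh1 and Tgfbi. The median gap between the lowest and highest probe set of a gene was 0.15. At the level of probe sets 14 of 69 lay wholly above the wild type and 2 wholly below, 1 each of Serpinh1 and Cald1, against 5.03% in either direction over all probe sets.

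Markers of other tissues were also followed pool by pool. Of 20 heart muscle markers, 19 were higher in the mutant, with a median of 0.66 that was 0.03 without mutant pool 1. Their median log2 ratio was 1.64 in mutant pool 1 and between -0.22 and 0.01 in the other 5 pools. Mutant pool 1 was thus the highest pool both for heart muscle markers and for 4 of the 5 smooth muscle genes. The part of heart tissue in the smooth muscle values was not tested. With that pool left out, the differences were 0.34 for Tagln, 0.22 for Cnn1, 0.21 for Myl9, 0.10 for Acta2 and -0.01 for Cald1. Those of Col3a1, Col1a1 and Postn were 0.55, 0.35 and 0.50.

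Presomitic mesoderm markers were lower in the mutant for 11 of 11 genes, Dll3 among them, with a median of -0.22. In 4 of these, Dll3, Hes7, Tbx6 and Lfng, every mutant pool lay below the wild type, against 1.84% of all genes. The others overlapped between genotypes. The pool medians of all 11 were 0.16, 0.01 and 0.28 in the wild type against -0.15, -0.23 and -0.03 in the mutant. Markers of endothelium (13 of 15 higher, median 0.09), lateral plate and allantois mesoderm (10 of 12, 0.11), parietal endoderm (9 of 10, 0.05), sclerotome and somite (8 of 12, 0.07) and primitive blood (5 of 7, 0.01) were more often higher than lower by sign. The parietal endoderm median was 0.17 without mutant pool 1 and also without wild-type pool 3. It was 0.02, with 6 of 10 higher, without wild-type pool 1. Without mutant pool 2 it was 0.04 and without mutant pool 3 it was 0.03, each time with 7 of 10 higher. The primitive blood median was -0.03, with 3 of 7 higher, without mutant pool 1. The lateral plate median was 0.06 without wild-type pool 3, and the sclerotome median was 0.005 without mutant pool 2. Every mutant pool lay above the wild type for 3 lateral plate, 2 endothelium and 2 parietal endoderm markers, against 3.11% of all genes. No sclerotome or primitive blood marker did so. The range ran from -0.23 for Pecam1 to 0.31 for Tie1 in endothelium, from -0.07 for Hand2 to 0.42 for Wnt2 in lateral plate and allantois mesoderm, and from -0.04 for Snai1 to 0.38 for Plat in parietal endoderm. In wild-type pool 1, where Sparc, Col4a1 and Col4a2 were lowest, the median was -0.23 for the parietal endoderm list, which itself includes Sparc, and -0.21 for the sclerotome list. The part of cell mixture in the matrix values was not tested. In bulk tissue, more cells of a type and more RNA per cell cannot be told apart.

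**Figure D4:**
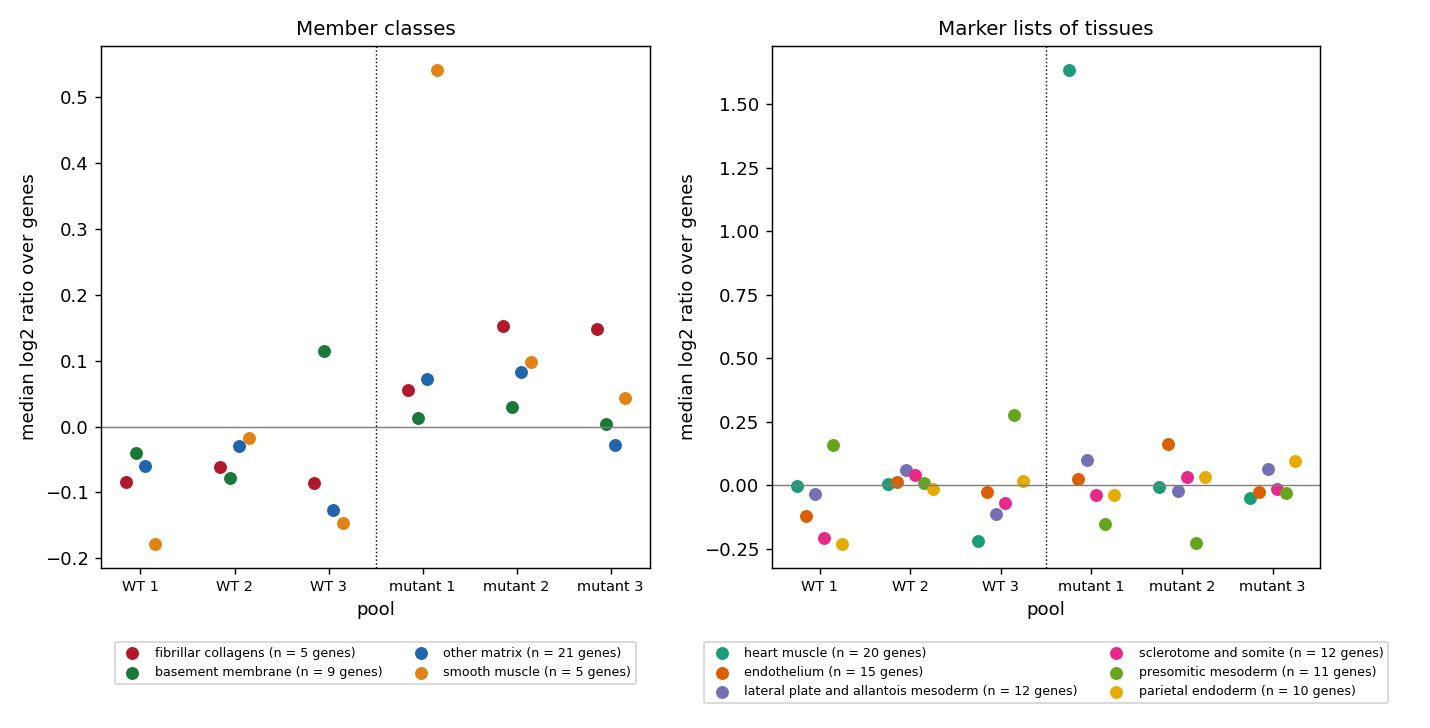
Median log2 ratio (y axis) in each pool (x axis) over the genes of each class, on the left, and over marker lists of other tissues, on the right, each point being 1 list in 1 pool. Heart muscle markers reach 1.64 in mutant pool 1 alone, where the smooth muscle class is also highest at 0.54, while the fibrillar collagens are above 0 in all 3 mutant pools.

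Other genes of the same pathways, 111 measured of 127 listed, were higher in 71 cases and lower in 40, with a median of 0.05. None passed limma at an adjusted p of 0.05, and 2 had an unadjusted p below it, against 1.28% of all genes. In 7 every mutant pool lay above the wild type, against 3.11% of all genes, and in 4 every mutant pool lay below, against 1.84%. Among other collagens 11 of 17 were higher (median 0.04), from -0.12 for Col13a1 to 0.27 for the cartilage collagen gene Col2a1, or 0.16 for the latter without mutant pool 1. Other laminins and linkers of the basement membrane (6 of 9 higher, median 0.09) stayed between -0.05 for Dag1 and 0.12 for Lamb3, with a median of 0.03 without mutant pool 1. Of the genes for collagen processing 10 of 13 were higher (median 0.08), from -0.30 for Pcolce2, an enhancer of procollagen cleavage (-0.20 without mutant pool 1), to 0.24 for Crtap, a partner of prolyl 3-hydroxylase. Elastic fibre and microfibril genes (7 of 10, median 0.04) ranged from -0.10 for Ltbp3 to 0.13 for Ltbp4. Their median was -0.02, with 4 of 10 higher, without mutant pool 2, and 0.004, with 5 of 10 higher, without wild-type pool 3. Matricellular and proteoglycan genes were nearly balanced (8 of 15 higher, median 0.01), with versican, Vcan, at -0.30 (-0.46 without mutant pool 1) and Smoc1 at 0.28. Matrix turnover genes (9 of 12, median 0.04) ranged from -0.10 for Mmp16 to 0.17 for Adamts1.

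The TGF-beta pathway, which controls transcription of many matrix genes, had 6 of 13 genes higher and a median of -0.02, which became 8 of 13 and 0.02 without mutant pool 1. Its receptor gene Tgfbr1 had the most negative difference, -0.31 (-0.51 without mutant pool 1), with mutant pool 2 as low as 0.595, and the co-receptor gene Eng had the most positive, 0.21. Of other smooth muscle contractile genes and the serum response factor group, 14 of 22 were higher with a median of 0.10. They ranged from -0.14 for the tropomyosin gene Tpm4 to 0.26 for Cnn2, a calponin found in many cell types. Actg2, the smooth muscle gamma actin gene, read 0.997, 1.003 and 0.832 in wild-type pools against 1.14, 0.996 and 1.18 in mutant pools, so that, unlike Actc1, it was not far higher in mutant pool 1.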

How the data were processed

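Total RNA from 3 wild-type and 3 mutant pools was hybridised to 1 array each, and the number of arrays limits the precision. The deposited value is a linear ratio. Over the 6 arrays the median of a probe set was 1 within 0.0011 for 92.8% of probe sets, as division by that median by the authors would give, but below 1 for 1640, whose divisor is unknown. Per the submitters' processing notes, RMA and MAS5 were used, with no role stated, and the background and normalization steps are not given in the sources used here.

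Of 22690 probe sets, 64 controls were left out. By the platform annotation, 20380 of the other 22626 had 1 symbol, 691 several and 1555 none; those without exactly 1 symbol named no gene. Symbols were updated by Entrez ID for 20351. Log2 ratios were averaged per gene and fitted with limma 3.58.1 in R 4.3.3 (lmFit, eBayes, two-sided, genotype only), adjusted by Benjamini-Hochberg over 12393 genes at 0.05. The fit was checked on simulated data. No sample was dropped or imputed outside the alternatives that leave out a pool.

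The genes and all lists were chosen with earlier results of these data known. Ratios in every pool are given for the fibrillar collagens and smooth muscle genes, for the 4 largest and 2 smallest differences of each other class, and for further genes without overlap. Alternatives were quantile normalization, centring, a pseudocount of 0.1, filters on probe sets, the median over probe sets, array weights, a replicate block, a variance trend with robust variances, single probe sets and leaving out each pool. Promoters came from a RefSeq table of GRCm38.p6 that held 28 of the 41 genes. Whether replicate numbers pair the pools is not known, and the main fit did not pair them. Plots were drawn with matplotlib 3.10.9.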

Additional observations from a re-analysis of the deposited data

How the results depend on the processing

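The count of genes past the threshold was 1, Dll3, and became 2, with Hnrnpl added, under quantile normalization, with arrays centred on their medians, without probe sets whose median was below 1, with plain _at probe sets, with array weights, with a variance trend and robust variances, and without wild-type pool 3 (range 1 to 2 over the fits that leave out 1 pool). No listed gene passed in any of these. The array weights did not reach their convergence tolerance. The median difference of the fibrillar collagens, 0.15, was 0.19 under quantile normalization and 0.10 with plain _at probe sets, and ranged from 0.10 to 0.20 with 1 pool left out. In the same way the basement membrane median ranged from -0.013 to 0.13, that of the other matrix genes from 0.062 to 0.15, and that of the smooth muscle genes from 0.21 to 0.46. The number of genes without overlap, 9, was 9 or 10 under the other settings and 10 to 16 with 1 pool left out, where 9.8% to 18.3% of all genes had none. Leaving out wild-type pool 1 gave 15, and leaving out either wild-type pool 2 or mutant pool 3 gave 16. Of the 11 genes with a difference of at least 0.25, none changed sign except Acta2 with plain _at probe sets, which leave out its 1416454_s_at. The median of all genes stayed within 0.02 of 0. Deviations of same-numbered pools correlated at 0.19, -0.0015 and 0.21, against -0.20 to 0.12 for pools with different numbers. These values, from few pools, cannot decide whether the numbers pair the pools. With the replicate number as a block the count of genes past the threshold was again 1. The values carry no signal over background, so which low signals limit them could not be judged.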

Other observations

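Beyond the listed genes, several genes of matrix or secreted proteins were among the 20 genes with the smallest unadjusted limma p, and they are named here after their values were seen. None passed the adjusted threshold. Col26a1, a minor collagen gene, read 0.812, 0.917 and 0.884 in wild-type pools against 1.08, 1.21 and 1.15 in mutant pools, a difference of 0.40 (SE 0.10). Mutant pool 2 was the highest, as for Postn. Nepn, encoding the proteoglycan nephrocan, read 0.950, 0.861 and 0.870 against 1.16, 1.05 and 1.17, a difference of 0.33. Itih5, whose family binds hyaluronan, read 0.859, 0.934 and 0.899 against 1.13, 1.22 and 1.07, a difference of 0.34. The choice by small p favours groups without overlap. Among the same 20 genes were 4 of the genes described above, Postn, Col3a1, Col1a1 and Tagln.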
